A study of Mus musculus with 6 samples.

Results

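The MHC genes and the genes that prepare peptides for them were followed across 6 kidney RNA libraries from mice. The genes were every protein-coding row of the deposited files whose symbol starts with H2-, together with Cd74, Ciita, Nlrc5, B2m, Tap1, Tap2, Tapbp, Psmb8, Psmb9 and Psmb10. This rule gave 37 genes of 25805 listed. They comprised 18 class I heavy chains, 9 class II genes, 4 peptide loading genes, 3 immunoproteasome subunits, 2 regulators and H2-Ke6. The last is named for its place in the region and encodes a hydroxysteroid dehydrogenase.

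All mice had kidney ischaemia-reperfusion injury, in which blood flow is stopped and then restored. The design asks how gene expression in the injured kidney differs between the 2 genotypes. The groups were 3 libraries titled IRI (ischaemia-reperfusion injury), with no genotype in the title, and 3 titled CXCR2_KO_IRI. They are written here as wild type and labelled knockout. Cxcr2 encodes a chemokine receptor of neutrophils and other cells. The labels give no strain, age, sex, allele or time after injury, no uninjured kidney was analysed here, and nothing says whether the libraries are from different animals. The p-values therefore reflect only how these libraries vary, and that variation may be technical.

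MHC class I molecules sit on nearly all nucleated cells and show CD8 T cells peptides cut from proteins made inside the cell. MHC class II molecules are found mainly on dendritic cells, B cells and activated macrophages and show CD4 T cells peptides taken up from outside. Interferon gamma, acting in part through IRF1, induces both sets of genes, and the master regulators CIITA and NLRC5 then act on class II and class I promoters. Injured tubular epithelium is known to express class II as well, in response to interferon gamma.

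The 6 libraries held 15518083 to 20356601 recovered reads. Cxcr2 itself did not separate the groups, with 15.9, 88.8 and 56.9 normalized counts in wild type and 98.0, 36.8 and 56.6 in labelled knockout (log2 difference 0.43, SE 0.64, limma adjusted p = 0.841). Here and below, 3 values in a row are libraries 1, 2 and 3 of a group. Cxcr2 was thus not lower in the libraries labelled knockout. The counts cover the whole gene and the deleted part is not given, so they do not check the labels. Kidney epithelial markers were present throughout, with a summed level of 60091 to 199740 normalized counts for 10 markers. Labelled-knockout library 1 stood apart in fat cell markers, whose 8 genes summed to 58301 normalized counts there against 344 to 3340 in the other 5 libraries. Labelled-knockout library 3 stood apart in interferon gamma signalling genes, which summed to 21604 there against 7355 to 9564 elsewhere.

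Short promoter stretches are shown for genes of each arm because the shared elements are the sites through which the regulators act on MHC genes. They come from RefSeq on GRCm38.p6, the assembly called mm10, and run 5′ to 3′ on the strand of the gene. Capitals mark the Y box (ATTGG or its reverse complement CCAAT, bound by NF-Y), the X2 core (TGACG or CGTCA), the full CRE (TGACGTCA) and the interferon-stimulated response element core, with overlapping matches merged. The stretch of H2-Aa is chr17:34287824-34288023 on the minus strand, that of H2-Eb1 chr17:34305667-34305866 on the plus strand, that of H2-K1 chr17:34000348-34000547 on the minus strand and that of B2m chr2:122147486-122147685 on the plus strand. Each holds 200 bases that end at the annotated start. The 30 bases at chr17:34187322-34187351 span the RefSeq start of Psmb9 and lie upstream of that of Tap1. The 2 genes are transcribed in opposite directions, and the bases are given on the strand of Tap1. In the files' coordinates Psmb9 runs from 34181988 to 34187764, so there the whole stretch lies within Psmb9.
H2-Aa: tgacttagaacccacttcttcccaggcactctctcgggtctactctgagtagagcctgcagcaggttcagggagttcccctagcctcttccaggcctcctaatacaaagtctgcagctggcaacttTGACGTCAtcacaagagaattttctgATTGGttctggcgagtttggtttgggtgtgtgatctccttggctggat
H2-Eb1: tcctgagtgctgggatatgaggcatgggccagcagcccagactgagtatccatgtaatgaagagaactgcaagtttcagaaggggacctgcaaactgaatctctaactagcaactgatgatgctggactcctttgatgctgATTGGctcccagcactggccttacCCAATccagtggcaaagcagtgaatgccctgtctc
H2-K1: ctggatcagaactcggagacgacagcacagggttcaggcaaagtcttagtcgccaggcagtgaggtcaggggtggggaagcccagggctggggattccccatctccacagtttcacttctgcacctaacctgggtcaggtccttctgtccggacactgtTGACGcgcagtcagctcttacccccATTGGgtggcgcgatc
B2m: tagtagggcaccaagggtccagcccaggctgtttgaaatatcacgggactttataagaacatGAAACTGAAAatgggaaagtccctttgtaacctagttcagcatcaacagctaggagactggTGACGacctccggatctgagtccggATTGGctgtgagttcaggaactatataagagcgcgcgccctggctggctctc
Tap1-Psmb9: gggctcggctttCCAATcagcggctgcgcg
In H2-Aa the first base of TGACG lay 26 bases before that of ATTGG, and in H2-K1 and B2m 25 bases before it. H2-Aa, H2-K1 and B2m thus had the same order of elements at nearly the same spacing. RefSeq promoter windows of 300 bases were matched for 30 of the 37 genes, in 33 windows. H2-Ab1, H2-Q1, H2-T24, Cd74, Tap2, Ciita and Nlrc5 had none. A Y box was found on either strand in 28 of the 33 windows, against 37.4% of all 32851 windows. By gene it was 26 of 30. The windows are not all separate, since those of Tap1 and Psmb9 overlap and H2-K1 and H2-M9 each enter with overlapping windows. The H2-DMa windows start at 34122582 and 34125268, upstream of the H2-DMa start of 34135182 in the files' coordinates. The X2 core was found in 13 of 33 windows against 20.8% of all, and the response element core in 3 of 33 (B2m, H2-T22 and H2-T23) against 3.44%. The interferon gamma activated site TTCNNNGAA was found in 3 of 33 (Psmb8, H2-DMb2 and H2-M3) against 8.3%. Such matches describe letters in the window and not bound sites.

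Of the 37 genes, 32 lay on chromosome 17 between 33915899 and 37483552 in the files' coordinates. The others were Ciita on chromosome 16, Nlrc5 and Psmb10 on chromosome 8, Cd74 on chromosome 18 and B2m on chromosome 2. Counts of related genes are uncertain, since the treatment of reads that match several genes is not given in the sources used here. Among the 18 class I genes, 12 shared more than 5% of their 50-base transcript windows with another gene. The largest shares were 34.5% in H2-T22 (mostly with H2-T10), 32.0% in H2-Q6 and 26.4% in H2-Q7, against 9.63% in H2-K1 and 12.8% in H2-D1. H2-DMb1 and H2-DMb2 shared 22.7% and 24.8% of theirs, and Cd74, H2-Ab1, H2-Eb1, Ciita, Nlrc5 and B2m shared none. The use of strand is not known either. Reads in the 212 bases where Psmb9 and Tap1 overlap therefore cannot be assigned to 1 gene. The same holds for the longer overlaps of B2m with Patl2, Ciita with Dexi, Psmb10 with Gm16156, and Psmb8 and Tap2 with Gm20496. Tapbp overlaps Zbtb22 on the same strand by 3421 bases of gene span, so its count is uncertain there whatever the use of strand.

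Per kilobase of gene length, the most abundant transcript was B2m, the light chain common to class I molecules, at a mean of 6884 normalized counts per kilobase over the 6 libraries. The classical heavy chains followed, H2-D1 at 2688 and H2-K1 at 2546. Their ranges over libraries, 2313 to 3208 and 2054 to 3333, overlapped, so these neighbours did not differ beyond their spread. The range of B2m, 4465 to 9716, lay above both. Cd74, the invariant chain that fills the class II groove, came next at 1286 (1009 to 1573), followed by Tapbp, or tapasin, at 1027 (676 to 1926). The class II chains were lower, H2-Eb1 at 515, H2-Ab1 at 511 and H2-Aa at 244. The regulators were among the scarcer transcripts, Ciita at 52.1 and Nlrc5 at 37.8 per kilobase. Their means rested on labelled-knockout library 3, where Ciita reached 264 and Nlrc5 150 per kilobase.

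Of the 37 genes, 33 had a mean of at least 1 normalized count and entered the test. None passed limma's threshold of 0.05 after adjustment over all 21721 genes (limma adjusted p 0.377 to 0.996), where 0.0046% of all genes did. At an unadjusted p under 0.05, 9 of the 33 were higher in labelled knockout (27.3%, against 3.94% of all genes) and 0 were lower (against 6.14% of all). The 9 were Cd74, H2-Ab1, H2-DMa, H2-Eb1, H2-DMb1, Tapbp, Nlrc5, H2-T23 and H2-Q6. The groups did not overlap for 6 of 33 with higher values (18.2%, against 8.27% of all genes) and for 1 with lower values (against 9.43%). Since the genes were chosen with earlier results of these data known, these shares are descriptions. DESeq2 on recovered reads called 1 of the 37 higher, Nlrc5, though not all of the 37 had an adjusted p. Of the 16222 genes with one, it called 0.647% in that direction and 1.95% in either. At an unadjusted p under 0.05 it had 13 of 37 higher, against 3.79% of all genes. edgeR called 0 of 27, where it called 0.00628% of all genes, and had 12 of 27 higher at an unadjusted p under 0.05, against 5.42% of all. With limma, the count of 9 became 4 of 33 without labelled-knockout library 3 (against 4.57% of all genes), 4 of 33 without wild-type library 3 (against 3.87%) and 15 of 32 without labelled-knockout library 1 (against 5.66%).

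The log2 difference of a gene is the mean of log2(normalized count + 1) in labelled knockout minus that in wild type, as fitted by limma (the log2 fold change on this scale). It was above 0 for 27 of the 33 genes, with a median of 0.56 where all genes had -0.001. Without labelled-knockout library 3 the median was 0.28, and 23 of 33 were above 0. That library was the highest of the 6 for 23 of the 33 genes, against 16.7% of all genes. Relative to the wild-type mean on the log2 scale, the median of the 33 was 0.086, 0.14 and -0.23 in the wild-type libraries and 0.22, 0.31 and 1.00 in the labelled-knockout ones.

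**Figure D1:**
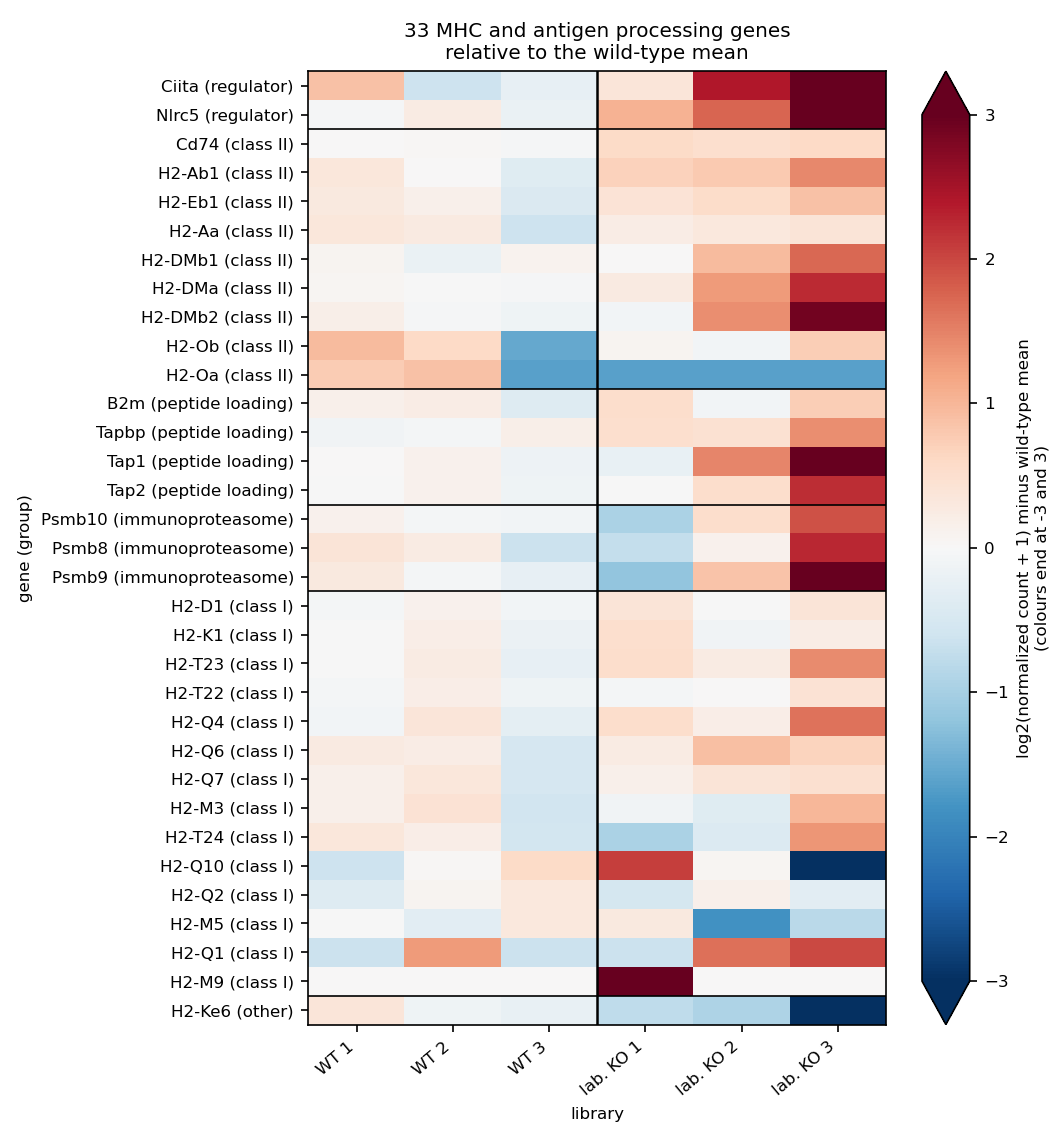
Rows are the 33 genes that entered the test, grouped by role, and columns the 6 libraries. Colour gives log2(normalized count + 1) minus the mean of the wild-type libraries, with colours ending at -3 and 3. Labelled-knockout library 3 is the darkest red column for the regulators, the peptide transporter and immunoproteasome genes and the H2-DM genes, while most class I heavy chains stay pale.

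Ciita, the regulator that switches on class II genes, had the widest range. It stood at 86.1, 29.6 and 38.7 normalized counts in wild type and at 60.1, 249 and 2519 in labelled knockout. Labelled-knockout library 1 lay inside the wild-type range, library 2 was 4.84-fold above the wild-type mean and library 3 49.0-fold above it. Limma gave a log2 difference of 2.84 with an SE of 1.28 (adjusted p = 0.52), and 1.39 without library 3. Nlrc5, the corresponding regulator of class I genes, stood at 74.4, 90.7 and 66.0 in wild type and at 158, 259 and 1277 in labelled knockout. Here the groups did not overlap, and the 3 labelled-knockout libraries were 2.05-fold, 3.36-fold and 16.6-fold above the wild-type mean. Limma gave 2.28 on the log2 scale with an SE of 0.71 (adjusted p = 0.409), and DESeq2 called it at 2.87 (adjusted p = 0.0021). Over all alternatives the adjusted p of Nlrc5 ran from 0.0021 to 0.945, with a log2 difference of 1.39 without labelled-knockout library 3.

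The 9 class II genes had a median log2 difference of 0.61 (0.48 without labelled-knockout library 3). Of them 8 were above 0, as were 10843 of all 21721 genes, and 1 was below (H2-Oa, at 0 in labelled knockout). At a limma unadjusted p under 0.05, 5 were higher (against 3.94% of all genes). Cd74 stood at 1471, 1512 and 1423 in wild type and at 2185, 2073 and 2218 in labelled knockout. This was the tightest separation among these genes, with means of 1469 ± 44.4 and 2159 ± 76.1 (SD, n = 3) and every labelled-knockout library 1.41-fold to 1.51-fold above the wild-type mean. Limma put the log2 difference of Cd74 at 0.56 (SE 0.14, 95% interval 0.24 to 0.87) with an adjusted p of 0.377, and it stayed between 0.53 and 0.58 over all alternatives. It missed the threshold with DESeq2 as well (adjusted p = 0.053).

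The class II chains were not alike. The beta chain H2-Ab1 stood at 694, 557 and 430 in wild type and at 893, 952 and 1494 in labelled knockout, without overlap (log2 difference 0.98, SE 0.25, limma adjusted p = 0.377). Its partner, the alpha chain H2-Aa, stood at 507, 484 and 262 in wild type and at 467, 496 and 527 in labelled knockout. The values of H2-Aa overlapped, and its log2 difference was 0.31 (95% interval -0.29 to 0.91, limma adjusted p = 0.712), and 0.0022 without wild-type library 3. Per kilobase, H2-Ab1 was 1.57, 1.32 and 1.88 times H2-Aa in wild type and 2.19, 2.20 and 3.25 times in labelled knockout, so this ratio did not overlap between groups. H2-Eb1, the beta chain of the other class II dimer, stood at 582, 526 and 350 in wild type and at 632, 691 and 880 in labelled knockout, again without overlap (log2 difference 0.61, SE 0.23, limma adjusted p = 0.451, and 0.39 without wild-type library 3). Of these chains, H2-Aa thus showed the smallest difference.

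The H2-DM dimer releases the invariant chain fragment and lets peptide bind. Its alpha chain H2-DMa stood at 134, 128 and 126 in wild type and at 156, 314 and 609 in labelled knockout (log2 difference 1.26, SE 0.44, limma adjusted p = 0.429, and 0.77 without library 3). H2-DMb1 stood at 267, 220 and 270 in wild type and at 255, 484 and 824 in labelled knockout, and H2-DMb2 at 22.6, 19.4 and 18.2 and at 18.9, 54.2 and 154. The log2 difference of H2-DMb1 was 0.89, and 0.48 without library 3. Groups were separate for H2-DMa only, since labelled-knockout library 1 lay within the wild-type range for both beta chains. Labelled-knockout library 3 was 4.71-fold, 3.27-fold and 7.69-fold above the wild-type mean for H2-DMa, H2-DMb1 and H2-DMb2, against 1.51-fold for Cd74, 2.67-fold for H2-Ab1, 1.81-fold for H2-Eb1 and 1.26-fold for H2-Aa. Ciita was 49.0-fold above it in the same library. H2-DO, the inhibitor of H2-DM made mainly in B cells, was near the detection limit. Its beta chain H2-Ob had 1 to 13 reads per library, and its alpha chain H2-Oa had 5 reads in each of wild-type libraries 1 and 2 and 0 in the other 4, where a count of 0 allows up to 3 reads.

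Class II genes are also read as a measure of antigen-presenting cells, so markers of those cells were counted. In bulk RNA, fewer cells of a type and less RNA per cell cannot be told apart. The 8 B cell markers summed to 15.9 to 67.7 normalized counts in wild type and 31.9 to 81.3 in labelled knockout, with 6 higher and 2 lower. Their median log2 difference was 0.54, and none had a limma unadjusted p under 0.05. Ms4a1 was at 0 in 3 of the 6 libraries. The 10 dendritic cell markers summed to 349 to 586 and 252 to 384, with 3 higher, 7 lower and Flt3 and Siglech at 0 in labelled-knockout library 3. The 11 macrophage and monocyte markers summed to 3560 to 5576 and 2813 to 4816, with 4 higher and 7 lower. At a limma unadjusted p under 0.05, 2 dendritic cell markers were lower and 0 higher. Of the macrophage and monocyte markers, 3 were lower and 1 higher (against 6.14% and 3.94% of all genes). Mrc1 stood at 129, 185 and 131 in wild type and at 76.9, 37.8 and 32.9 in labelled knockout (DESeq2 adjusted p = 0.0135). Labelled-knockout library 3 had the highest sum of class II transcripts (6716 against 2881 to 5068). In it the dendritic cell sum was the lowest of the 6 and the macrophage sum (3061) was below that of every wild-type library. Zbtb46, a large part of the dendritic cell sum, stood at 250, 377 and 206 in wild type and 219, 143 and 74.1 in labelled knockout. In labelled-knockout library 3 Itgax and Ccr7 were 1.29-fold and 2.25-fold of the wild-type mean, and the other dendritic cell markers were below it. Ly6c2, Fcgr1 and Csf1r were 7.02-fold, 1.58-fold and 1.05-fold of it there, and the other macrophage and monocyte markers were below it. Endothelial markers (8 genes) summed to 11918 to 19569 in wild type and to 10846, 10147 and 4924 in labelled knockout, without overlap. Of these, 7 of 8 were lower, with 4 lower at an unadjusted p under 0.05 (against 6.14% of all genes). Kidney epithelial markers summed to 60091 in labelled-knockout library 3, the lowest of the 6. The 10 T and NK cell markers summed to 30.7 to 45.1 and 46.3 to 83.3, without overlap but with close edges. Of the 9 tested, 5 were higher and 4 lower, with 3 higher at an unadjusted p under 0.05 (against 3.94% of all genes). Apart from Cd8a, with up to 46 reads, each of these markers had 14 reads or fewer in every library. Neutrophil markers (10 genes) summed to 409 to 1395 in wild type and to 4588, 489 and 1030 in labelled knockout, and 5 thymus or lymph node markers to 13.7 to 37.6 and to 452, 13.6 and 69.0. The part of cell composition in the class II values was not tested.

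**Figure D2:**
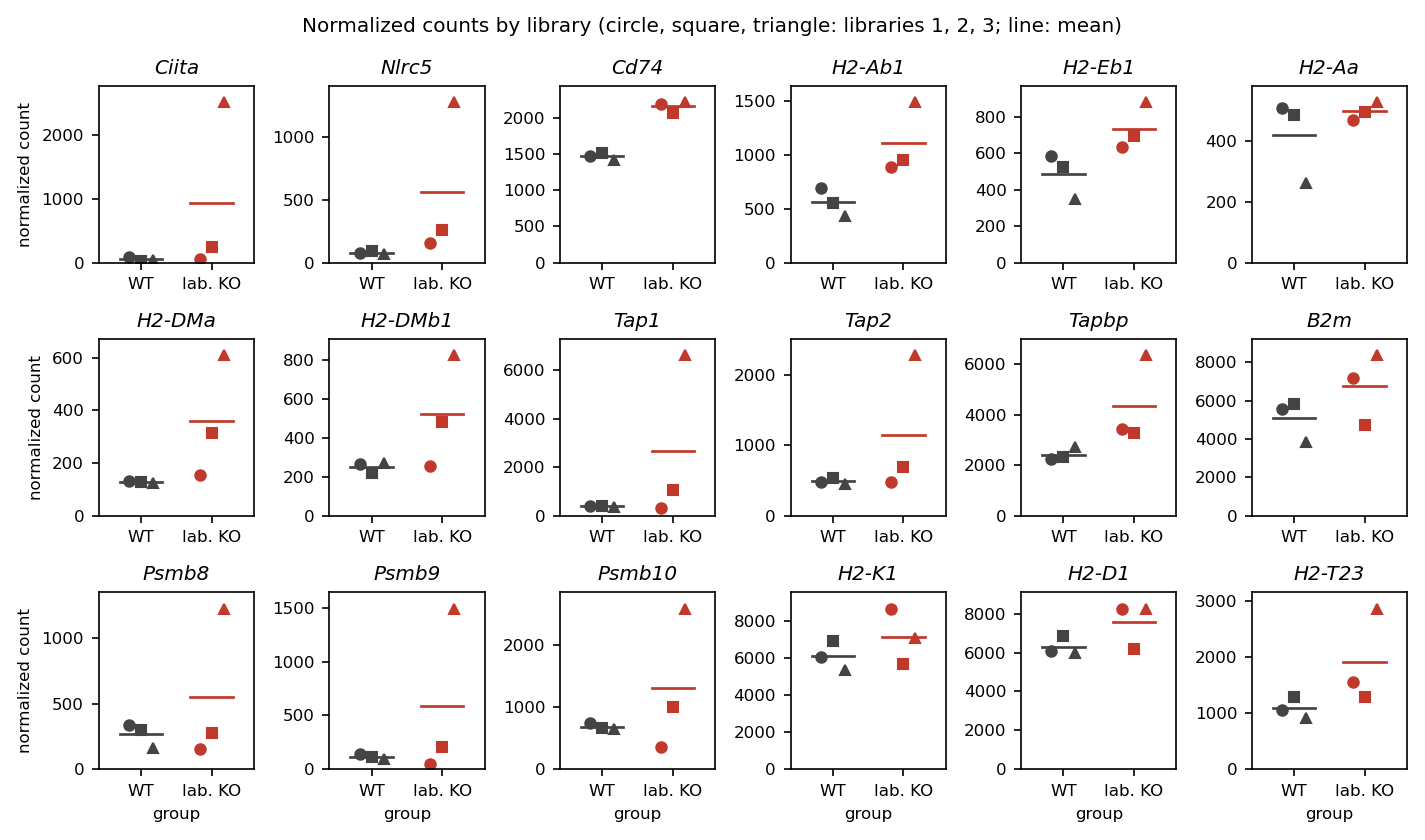
Each panel plots the normalized counts of 1 gene from 0, with grey symbols for wild type, red symbols for labelled knockout, circles, squares and triangles for libraries 1, 2 and 3 and a line at the group mean. Cd74 forms a tight pair of clusters near 1469 and 2159, whereas for Ciita, Nlrc5, Tap1 and Psmb9 the triangle of library 3 lies far above every other symbol.

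Peptides for class I are carried into the endoplasmic reticulum by the transporter made of TAP1 and TAP2, and tapasin, encoded by Tapbp, holds the empty class I molecule beside it. Tap1 stood at 393, 424 and 349 in wild type and at 330, 1068 and 6607 in labelled knockout. Labelled-knockout library 3 was far above the wild-type mean of 389 and library 2 was 2.75-fold above it, while library 1 was below every wild-type library. The log2 difference of Tap1 was 1.77 with an SE of 1.01 (limma adjusted p = 0.592), and 0.61 without labelled-knockout library 3. Tap2 stood at 480, 534 and 446 and at 485, 694 and 2273 (log2 difference 0.91, SE 0.53, limma adjusted p = 0.592, and 0.26 without labelled-knockout library 3). The partners moved unequally, since Tap1 per kilobase was 0.54 to 0.57 of Tap2 in wild type and 0.47, 1.06 and 2.01 of it in labelled-knockout libraries 1 to 3. Tapbp differed in all 3 labelled-knockout libraries, at 2228, 2320 and 2718 in wild type and 3419, 3287 and 6347 in labelled knockout, without overlap (log2 difference 0.78, SE 0.26, limma adjusted p = 0.414, and 0.47 without library 3). B2m stood at 5577, 5843 and 3840 and at 7171, 4736 and 8356, with overlap (log2 difference 0.39, SE 0.25, limma adjusted p = 0.617, and 0.20 without wild-type library 3).

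The immunoproteasome subunits PSMB8, PSMB9 and PSMB10 replace the constitutive PSMB5, PSMB6 and PSMB7 under interferon gamma and alter which peptides are cut. Psmb9 stood at 142, 111 and 96.7 in wild type and at 50.1, 209 and 1497 in labelled knockout. Psmb8 stood at 335, 301 and 164 and at 154, 279 and 1226, and Psmb10 at 752, 659 and 653 and at 358, 997 and 2598. In each case library 1 was the lowest of all 6 and library 3 the highest, so the labelled-knockout libraries lay on both sides of the wild type. The log2 differences were 1.12 (SE 1.12), 0.56 (SE 0.73) and 0.51 (SE 0.64), all with a limma adjusted p of 0.752 or more, and turned to -0.16, -0.30 and -0.20 without library 3. The constitutive partners had no such range, Psmb5 with 3952 to 4177 in wild type and 2079, 3840 and 4054 in labelled knockout and Psmb7 with 1611 to 1836 and 1345 to 1600, where the groups were separate. Psmb6 stood at 2965 to 3275 in wild type and at 2113, 2981 and 2962 in labelled knockout. The 3 partners had log2 differences of -0.36, -0.24 and -0.18, and none passed (limma adjusted p 0.644 to 0.704).

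Within libraries, Psmb10 per kilobase was 0.80 to 0.82 of Psmb7 in the 3 wild-type libraries and 0.46, 1.49 and 3.26 of it in labelled-knockout libraries 1 to 3. Psmb9 was 0.017 to 0.022 of Psmb6 in wild type and 0.012, 0.036 and 0.26 of it in labelled knockout. Psmb8 was 0.013 to 0.027 of Psmb5 in wild type and 0.024, 0.024 and 0.099 in labelled knockout. The order of the labelled-knockout libraries was therefore the same for Psmb9 and Psmb10, and for Psmb8 library 3 alone lay above the wild-type range.

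**Figure D3:**
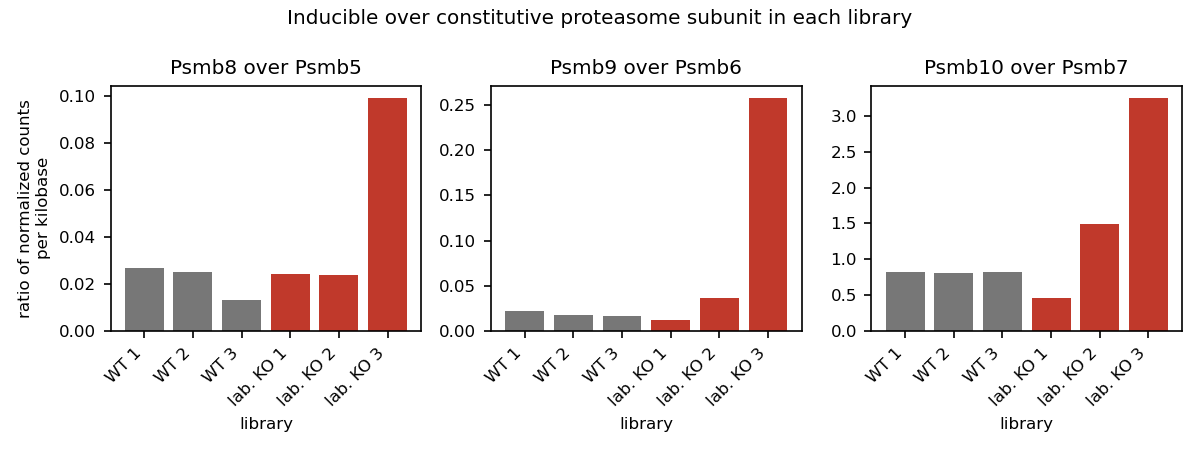
Bars give the ratio of an inducible to its constitutive proteasome subunit, in normalized counts per kilobase, for the 3 wild-type libraries (grey) and the 3 labelled-knockout libraries (red), each panel with its own axis from 0. The bar of labelled-knockout library 3 is the tallest in every panel, at 0.099, 0.26 and 3.26.

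The class I heavy chains with a mean of at least 100 varied less than the immunoproteasome subunits. The 14 class I heavy chains that entered the test had a median log2 difference of 0.24, and their groups overlapped in every case. That median was 0.11 without wild-type library 3, and leaving out library 2 of wild type or of labelled knockout gave 0.36 and 0.38. H2-K1 stood at 6067, 6929 and 5357 in wild type and at 8693, 5700 and 7094 in labelled knockout (log2 difference 0.21, 95% interval -0.24 to 0.67, limma adjusted p = 0.735). H2-D1 stood at 6066, 6838 and 5965 and at 8272, 6208 and 8253 (log2 difference 0.26, 95% interval -0.14 to 0.66, limma adjusted p = 0.634). Without labelled-knockout library 1 the difference of H2-K1 was 0.064, and without library 2 it was 0.37 for H2-K1 and 0.40 for H2-D1. For both classical chains, labelled-knockout library 2 lay inside the wild-type range, and library 3, with its 16.6-fold Nlrc5, was only 1.16-fold and 1.31-fold above the wild-type mean.

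Among the non-classical heavy chains, H2-T23, which encodes Qa-1, the ligand of an inhibitory NK cell receptor, stood at 1062, 1288 and 914 in wild type and at 1562, 1287 and 2872 in labelled knockout (log2 difference 0.74, SE 0.29, limma adjusted p = 0.465). H2-Q4 stood at 659, 898 and 562 and at 999, 796 and 2162 (log2 difference 0.79, SE 0.37, limma adjusted p = 0.52). These were the class I genes with the largest excess in library 3 among those with a mean of at least 100, at 2.64-fold and 3.06-fold over the wild-type mean, and without it their log2 differences were 0.40 and 0.36. H2-Q6 and H2-Q7, which encode Qa-2 molecules, differed in which library was highest. H2-Q6 stood at 527, 511 and 311 and at 517, 822 and 697 (log2 difference 0.61, SE 0.26, limma adjusted p = 0.488), and H2-Q7 at 370, 427 and 238 and at 375, 441 and 465 (log2 difference 0.34, SE 0.25, limma adjusted p = 0.655). Without wild-type library 3 their log2 differences were 0.36 and 0.099. H2-T22, recognised by some gamma-delta T cells, stood at 1189, 1416 and 1124 and at 1187, 1248 and 1675 (log2 difference 0.13, SE 0.18, limma adjusted p = 0.831, and -0.023 without labelled-knockout library 3).

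The scarcer class I genes had no common direction. H2-M3, which presents formylated bacterial peptides, stood at 81.1, 99.0 and 48.9 in wild type and at 67.9, 57.1 and 147 in labelled knockout. H2-T24 stood at 72.7, 65.7 and 38.7 and at 28.96, 42.6 and 143. H2-Q10, a secreted class I molecule best known from liver, had the opposite order of labelled-knockout libraries to Ciita and Tap1. It stood at 16.7, 26.8 and 39.8 in wild type and at 114, 27.1 and 2.06 in labelled knockout, so library 1 was the highest and library 3 the lowest of the 6. Among the genes tested, library 3 was also below the wild-type mean for H2-Q2, H2-M5, H2-Oa and H2-Ke6. Library 1 was also the library with the fat cell markers, and whether the 2 are linked was not tested. H2-Q2 stood at 16.7 to 30.7 over all libraries. H2-M5, H2-Q1 and H2-M9 had 7 reads or fewer in each library, and H2-M1, H2-M2, H2-M10.2 and H2-M10.5 had 3 or fewer and were not tested. H2-Ke6, the hydroxysteroid dehydrogenase gene, was the only gene with separate groups and lower values, at 6 to 13 reads in wild type and 4, 4 and 0 in labelled knockout (log2 difference -1.63, SE 0.77, limma adjusted p = 0.52). It shares 70.5% of its transcript windows with the overlapping Gm20427, so its count is uncertain.

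**Figure D4:**
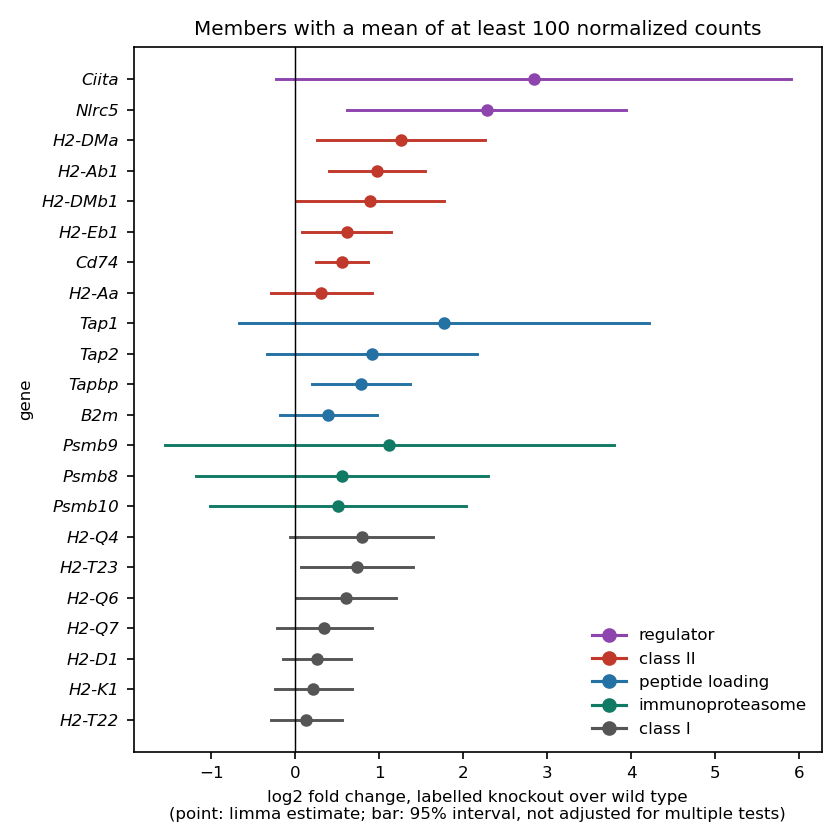
Points give the limma log2 difference of labelled knockout over wild type and bars its 95% interval, not adjusted for multiple tests, for the 22 genes with a mean of at least 100 normalized counts, coloured by role. Ciita and Nlrc5 reach that mean only through labelled knockout. The bars are widest for Ciita (-0.23 to 5.90), Psmb9 (-1.55 to 3.79) and Tap1 (-0.67 to 4.21) and narrowest for Cd74 (0.24 to 0.87).

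Other genes of the pathway were read from lists, and the first 2 by p are named from each. None of the 42 genes tested passed limma's threshold. Of 9 interferon gamma signalling genes, 8 were higher and 1 lower, with a median log2 difference of 0.70. At an unadjusted p under 0.05, 2 were higher (against 3.94% of all genes). Socs1, the feedback inhibitor of this pathway, stood at 26.7, 25.0 and 23.9 in wild type and at 44.6, 53.2 and 349 in labelled knockout (log2 difference 1.86, SE 0.72, limma adjusted p = 0.458, DESeq2 adjusted p = 0.0244). Irf2 stood at 234, 357 and 388 and at 482, 398 and 729 (log2 difference 0.70, SE 0.28, limma adjusted p = 0.467). Groups were separate for both genes. Irf1, a transcription factor of the pathway, was chosen after its values were seen. It stood at 549, 501 and 470 in wild type and at 479, 1016 and 6786 in labelled knockout. Library 1 lay within the wild-type range and library 3 far above it. The order of the labelled-knockout libraries, with library 1 the lowest and library 3 the highest, was also that of Tap1, Psmb9 and Ciita. Labelled-knockout library 3 was the highest of the 6 for 16.7% of all genes. Whether Irf1 is linked to these genes was not tested.

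Of 5 co-stimulation and checkpoint genes, all had a log2 difference above 0, as did 10843 of all 21721 genes. At a limma unadjusted p under 0.05, 1 was higher (against 3.94% of all genes), and for the others the groups overlapped. Cd274, which encodes the T cell inhibitory ligand PD-L1, stood at 80.2, 80.5 and 45.5 in wild type and at 227, 92.9 and 1052 in labelled knockout (log2 difference 2.07, SE 0.82, limma adjusted p = 0.472, DESeq2 adjusted p = 0.00923), without overlap. Cd86, a co-stimulatory ligand of antigen-presenting cells, stood at 41.8, 50.9 and 18.2 and at 60.1, 33.9 and 44.3 (log2 difference 0.39, limma adjusted p = 0.797). In labelled-knockout library 3, Cd274 thus reached 15.3-fold of the wild-type mean and Cd86 1.197-fold. Cd40 was 1.73-fold and Cd80 0.44-fold of it there, and Pdcd1lg2 had 4 reads or fewer in every library.

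Of 7 genes for lysosomal proteases and the reductase that prepare class II peptides, 3 were higher and 4 lower. The legumain gene Lgmn stood at 22354, 13552 and 18642 in wild type and at 22490, 26330 and 37105 in labelled knockout (log2 difference 0.65, SE 0.26, limma adjusted p = 0.458), and cathepsin B, from Ctsb, at 24885, 20366 and 26886 and at 28986, 28456 and 41693 (log2 difference 0.45, limma adjusted p = 0.528), again without overlap. Of 7 factors that bind class II promoters, 3 were higher and 4 lower, with a median of -0.009. Rfxank had a log2 difference of 0.44 and Nfya one of -0.38, with the groups separate for both. The summed level of the 7 factors ran from 3291 to 3516 normalized counts over the 6 libraries, while Ciita ran from 29.6 to 2519. Of 6 loading complex and trimming genes, 4 were higher and 2 lower. Erap1, which trims peptides in the endoplasmic reticulum, stood at 1345 in library 3 against 625 to 889 elsewhere, and the tapasin relative Tapbpl at 1256 against 246 to 364. Of 5 proteasome activator and assembly genes, 4 were higher and 1 lower, with Pomp at -0.40 and Psme3 at 0.11.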

How the data were processed

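RNA of 6 mouse kidney samples was sequenced, in 2 groups of 3 by the labels. Each deposited file lists a normalized signal for every gene. Its values are reads scaled with a library-wide size factor. In every file 100% of them were whole multiples of 1 step within 0.001 reads, so the reads were recovered. The gene lengths in bases are those of the deposited files. The build was mm10 per the submitters' processing notes, and the sources used here do not name the aligner, counting program or annotation release. All 37 identifiers are in GENCODE M21, 27 with the same start and end.

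The main test was limma 3.58.1 (trend and robust options, R 4.3.3) on log2(normalized count + 1). The 21721 genes averaging at least 1 normalized count entered, with Benjamini-Hochberg adjustment over them at 0.05. This scale understates the change of low genes. edgeR 4.0.16 (quasi-likelihood) and DESeq2 1.42.0 (Wald test) on recovered reads, other pseudocounts, filters and scaling, a replicate block and leaving out each library were alternatives. The main limma test was tried on simulated data, while edgeR and DESeq2 were not. An exact permutation test of 3 against 3 libraries cannot go below 0.1 and was not used. Limma's intervals reflect the spread between libraries, and the floor of 3 reads covers counting error only.

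The members and lists were chosen with earlier results of these data known. Genes named were 15 core members, the constitutive proteasome partners, Cxcr2, members with a mean of at least 100 or called by any test, and the 2 genes of smallest p in each pathway list. Other members are given by values where these help. Ifng and Ccl19 of the lists were not analysed here.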

Additional observations from a re-analysis of the deposited data

How the results depend on the processing

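The direction of the log2 fold change was kept in 304 of 308 refits of the 22 genes with a mean of at least 100 normalized counts. This count overstates stability. The refits without the filter, with a minimum mean of 10 and with the replicate block return the main estimate of these genes and could not turn. Pseudocount and scaling refits reuse the same libraries. Ciita and Nlrc5 reach the mean of 100 only through labelled knockout. The 4 that turned all came without labelled-knockout library 3, and with 1 library left out Psmb8 ran from -0.30 to 1.196, Psmb9 from -0.16 to 2.27, Psmb10 from -0.20 to 1.23 and H2-T22 from -0.023 to 0.23. The count of MHC and processing genes past the threshold was 0 in every fit except DESeq2, which gave 1, Nlrc5 (log2 fold change 2.87). Over all genes the count was 1, and 316 with DESeq2, 16 with the replicate block, 5 without the filter on low values, 4 with TMM scaling, 2 with a pseudocount of 10 and 1 to 6 with 1 library left out. The median log2 fold change of the class I heavy chains was 0.24 and became 0.45 with DESeq2, and the cause was not tested. Without the filter on low values, which leaves the same 18 genes in, it was 0.25. With 1 library left out it ran from 0.11 to 0.38. That of the class II genes was 0.61 and became 0.99 with edgeR, whose filter removes H2-Oa and H2-Ob. With 1 library left out, the median over all members ran from 0.28 without labelled-knockout library 3 to 0.75 without labelled-knockout library 1 (0.81 with DESeq2 and with edgeR), and that of the loading and immunoproteasome genes from 0.22 to 1.23 without the same libraries. Same-numbered libraries had correlations of deviations from the group mean of 0.067, -0.15 and 0.12, and not every library correlated best with its own number (0.20 for wild-type library 1 and labelled-knockout library 2), so the numbers were not taken as pairs, and the replicate block changed no call among the MHC and processing genes. With 3 libraries in a group, differences that rest on 1 library cannot be told from the spread between libraries. Members with under 10 reads per library are limited by depth.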

Other observations

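The region also holds H2- loci that are not listed as protein-coding and were therefore outside the rule. H2-K2, an unprocessed pseudogene near H2-K1 on chromosome 17 from 33974831 to 33978790, stood at 68.5, 89.7 and 71.7 normalized counts in wild-type libraries 1 to 3 and at 143, 106 and 188 in labelled-knockout libraries 1 to 3. The groups did not overlap, in contrast to those of H2-K1. H2-Q5, listed as a polymorphic pseudogene, stood at 104, 107 and 42.1 in wild type and at 102, 106 and 113 in labelled knockout. H2-T10 stood at 51.8, 43.5 and 25.0 and at 35.6, 29.05 and 36.0. H2-T-ps stood at 31.8, 87.0 and 21.6 and at 20.0, 4.84 and 34.0. None of the 6 such loci passed limma's threshold, with 1 at an unadjusted p under 0.05 (H2-K2, log2 difference 0.89, SE 0.31, limma adjusted p = 0.429).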
